A study of Homo sapiens with 12 samples.

Results

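AGS cells treated with mycophenolic acid (MPA) for 72 h were set against untreated AGS cells at 0 h, across every gene measured on Illumina HumanHT-12 bead arrays. AGS is an established human gastric adenocarcinoma cell line. The comparison used 6 of the 12 arrays of the series, chosen by their labels alone: 2 arrays of cells kept with MPA at 2 µg/ml for 72 h and 4 control arrays of cells that received none. The same dose was given for 12, 24 and 48 h on 2 arrays each, and these arrays entered the fit and gave the comparisons of 72 h with 48 h and with 12 h. The 4 control arrays served every time point. Untreated cells were measured at 0 h only, so MPA exposure and hours in culture cannot be told apart. Arrays of a group were numbered as replicates, with no word on whether they came from separate cultures, so that the p-values measure a spread between arrays that may be technical. Of 18852 genes named by a probe, 10469 were detected (p under 0.01) by a probe on 2 or more arrays and were tested.

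MPA blocks inosine monophosphate dehydrogenase (IMPDH), the enzyme that commits purine synthesis to guanine nucleotides, and so lowers the GTP that cells draw on for DNA, RNA and signaling. Guanine nucleotide shortage is known to disturb ribosomal RNA synthesis in the nucleolus and to arrest dividing cells.

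Detected probes numbered 14514 and 15083 on the 72 h arrays, against 14077 to 14893 on the 0 h arrays. The mean intensity before normalization was 450 and 419.8 on the 72 h arrays and 478.6 to 681.1 on the 0 h arrays, so both 72 h arrays were dimmer than every 0 h array, and the part of this in the results was not tested beyond the scaling given below. Of 9 epithelial markers with a probe, 7 were detected on both 72 h arrays and 7 on all 0 h arrays, with a mean log2 signal of 9.7 to 9.76 at 72 h and 9.95 to 10 at 0 h. KRT18 was detected on none of these arrays, while EPCAM, KRT8, KRT19 and CDH1 were detected on all of them. Of 8 epithelial markers tested, ESRP1 (-1.08) and CD9 (-0.48) were called lower at 72 h and no marker was called higher. Fibroblast, leukocyte and endothelial markers were largely undetected, with 1 of 10, 3 of 9 and 1 of 10 detected on both 72 h arrays, and PTPRC, CD3D, DCN, LUM, CDH5 and VWF were detected on none. Among the others, COL1A1 was detected on all controls and no 72 h array and fell at least 2.02-fold, COL5A1 (1.27) and CD68 (0.53) rose, and LYZ (-0.32) and ESAM (0.38) were detected on all of these arrays and not called.

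The difference between 72 h and 0 h was wider than the spread of replicates. On the log2 scale, the difference between the arrays of the 72 h pair had an SD of 0.299 over genes, and that between 0 h arrays had an SD of 0.252 to 0.318 over 6 pairs. Between a 72 h and a 0 h array the SD was 0.644 to 0.69 over 8 pairs. At an adjusted p under 0.05 (limma, Benjamini-Hochberg), 4433 genes differed, or 42.3% of those tested, with 2196 up-regulated (21.0%) and 2237 down-regulated (21.4%) at 72 h. Both 72 h arrays lay above all 4 controls for 2889 of the 10469 genes and below them for 2992, and 4358 of the 4433 called genes were among these. Changes of 2-fold or more were seen for 494 up-regulated genes (4.72%) and 372 down-regulated genes (3.55%), and 8-fold changes for 21 and 6. With each array scaled to its median over all probes, an alternative added after the data were seen, the median of all genes moved to -0.32 on the log2 scale, from which 843 genes were called higher and 3545 lower. Scaling to the median of the kept probes gave 2093 higher and 2335 lower, so the near-even split was lost with all-probe scaling alone among the scalings run. For many of the gene families below, counts with all-probe scaling stand beside the main ones.

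**Figure D1:**
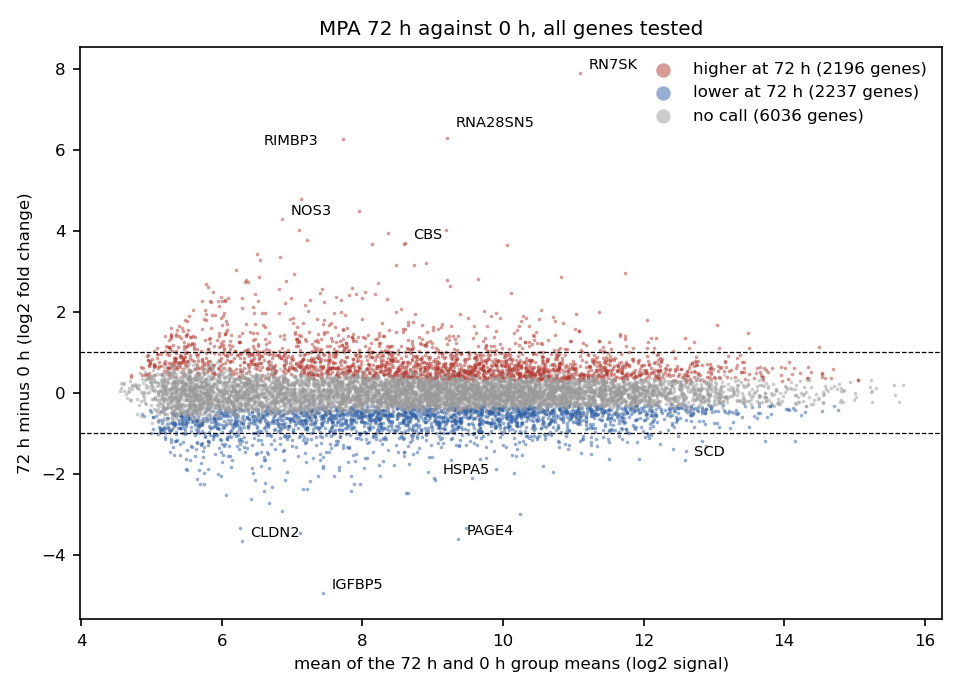
All 10469 genes tested, with the mean of the 72 h and 0 h group means on the x axis (log2 signal) and the difference of 72 h minus 0 h on the y axis (log2 fold change). Red points are the 2196 genes higher at 72 h, blue points the 2237 lower, grey points those with no call, and dashed lines mark 2-fold. RN7SK lies highest at 7.90 and IGFBP5 lowest at -4.95.

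Noncoding RNAs that normally lack a poly(A) tail were among the largest rises at 72 h, although an oligo-dT primer was used to label the RNA. RN7SK, the 7SK RNA that holds the elongation factor P-TEFb inactive, had a log2 signal of 15.08 and 15.01 at 72 h, against 7.50, 7.17, 7.18 and 6.74 at 0 h. Its rise of 7.90 (SE 0.165, adjusted p = 1.6e-11, limma) was a 239-fold difference. The signal had already reached 13.95 and 13.96 at 48 h, and the further 1.09 between 48 and 72 h passed the test (adjusted p = 0.012).

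RNA28SN5, a 28S ribosomal RNA gene, gave 12.35 and 12.37 at 72 h, against 6.95, 6.11, 5.84 and 5.34 at 0 h, with detection on 2 of these 4 (log2 fold change 6.30, SE 0.332, adjusted p = 4.4e-08). RNU6ATAC, an RNA of the minor spliceosome, gave 9.54 and 9.53 at 72 h and 5.19, 4.72, 4.47 and 4.56 at 0 h. It was detected on no control array, so its rise is given as a lower bound, at least 14.5-fold (adjusted p = 5.7e-09). In such bounds each array of the undetected group counts at the higher of its own value and the lowest signal detected on it. SNORD13, a small nucleolar RNA, rose at least 10.8-fold, to 9.13 and 9.09 at 72 h, against 5.45, 4.70, 5.10 and 5.09 at 0 h (adjusted p = 9.1e-09). RNU11, another RNA of the minor spliceosome, had 8.46 and 8.09 at 72 h, against 5.91, 6.01, 6.15 and 6.31 at 0 h, a rise of 2.18 on the log2 scale (SE 0.168, adjusted p = 9.9e-07). For these RNAs the 72 h arrays lay far above every control, and close together except for RNU11 (SD 0.267, against 0.176 at 0 h).

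Probes of 47 small noncoding and ribosomal RNAs, RNA28SN5 included, were tested and were grouped after their values were seen. Of these, 15 rose and 5 fell (10 and 7 with all-probe scaling), beside 21.0% and 21.4% of all genes, and the rises were uneven. SNORD46 rose by 2.93, SNORA7B by 1.49, RPPH1, the RNA of RNase P, by 1.07 and RN7SL1, the RNA of the signal recognition particle, by 0.58. By contrast SNORD31 fell by 0.70 and SNORD30 fell by 0.54. Over the 40 small nucleolar RNAs 9 rose, a share near the 21.0% of all genes, and 5 fell, with a median of 0.04. With all-probe scaling 5 of them rose and 7 fell. Of 105 long noncoding RNAs, 47 rose and 8 fell, with a median of 0.35 (28 and 9 with all-probe scaling), against 2108 and 2202 of 10189 protein-coding genes with a median of -0.02. Whether poly(A) tails, RNA integrity or labelling differed between the groups was not tested.

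A further pair of probes with large rises share their gene interval with such RNAs. RIMBP3, a gene known from testis whose interval also holds the 7SK pseudogene RN7SKP131, had 10.79 and 10.93 at 72 h, against 4.51, 4.68, 4.67 and 4.50 at 0 h. It was detected on no control array and rose at least 36.4-fold (adjusted p = 2.6e-10). TMEM107, a gene of the ciliary transition zone whose interval overlaps SNORD118, had 10.51 on both 72 h arrays, against 7.20, 7.29, 7.25 and 7.45 at 0 h (log2 fold change 3.21, adjusted p = 2.2e-09). In a fit over probes, another TMEM107 probe rose by 0.84 (adjusted p = 0.0016, limma). The positions of the probes were not used here, so the signals of gene and neighbour cannot be told apart.

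Among protein-coding genes detected on all 6 arrays, the highest rise was that of NPPB, which encodes the natriuretic peptide BNP, with 11.21 and 11.18 at 72 h, against 6.64, 6.88, 7.89 and 7.29 at 0 h (log2 fold change 4.02, adjusted p = 2.5e-07). PLA2G4C, a calcium-independent phospholipase A2, had 10.51 and 10.18 at 72 h, against 6.36, 6.61, 6.37 and 6.22 at 0 h (3.95, adjusted p = 1.4e-09). CBS, the enzyme that joins homocysteine to serine in transsulfuration, gave 10.22 and 10.68 at 72 h and 6.86, 6.81, 6.82 and 6.52 at 0 h (3.70, adjusted p = 6e-09). All 3 were picked by a rule that asks for 72 h arrays outside the range of the controls, and NPPB had the widest spread of control arrays among them.

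SUGCT, a mitochondrial CoA transferase, rose by 3.69, CDH10, a type II cadherin, by 3.67 and CPA4, a secreted carboxypeptidase, by 3.65. ZDHHC11, a palmitoyltransferase, rose by 3.16, and RGL1, a guanine nucleotide exchange factor for Ral, by 2.81. Another probe of ZDHHC11 was detected on no 72 h or 0 h array and was not called. TXNIP, which binds thioredoxin and restrains glucose uptake, had 10.06 and 10.04 at 72 h, against 6.81, 6.62, 7.12 and 7.06 at 0 h (adjusted p = 3e-08). GRIN2C, an NMDA receptor subunit named after its values were seen, had 10.15 and 10.25 at 72 h, against 5.87, 6.03, 5.80 and 5.17 at 0 h, where it was detected on 2 arrays.

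Genes detected on both 72 h arrays and on none of the controls numbered 150 among those up-regulated. NOS3, the endothelial nitric oxide synthase, had 8.81 and 9.18 at 72 h, against 4.69, 4.64, 4.87 and 4.66 at 0 h, and rose at least 9.97-fold (adjusted p = 2.9e-10). Its neighbour ATG9B overlaps the same interval. ABCA12, a lipid transporter of keratinocytes, rose at least 7.07-fold, CYGB, the oxygen-binding cytoglobin, at least 5.82-fold, and LGALS7, a galectin of stratified epithelium, at least 5.67-fold. ITGB2, the beta subunit of leukocyte integrins, had 7.63 and 7.86 at 72 h, against 4.93, 5.03, 4.74 and 5.32 at 0 h, and rose at least 4.19-fold (adjusted p = 8e-08). Of 9 leukocyte markers with a probe, CD68, CD14 and LYZ were detected on both 72 h arrays, CD68 rose by 0.53, CD14 (0.25) and LYZ (-0.32) were not called, and PTPRC was detected on no array of either group. Their part in the rise of ITGB2 was not tested.

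**Figure D2:**
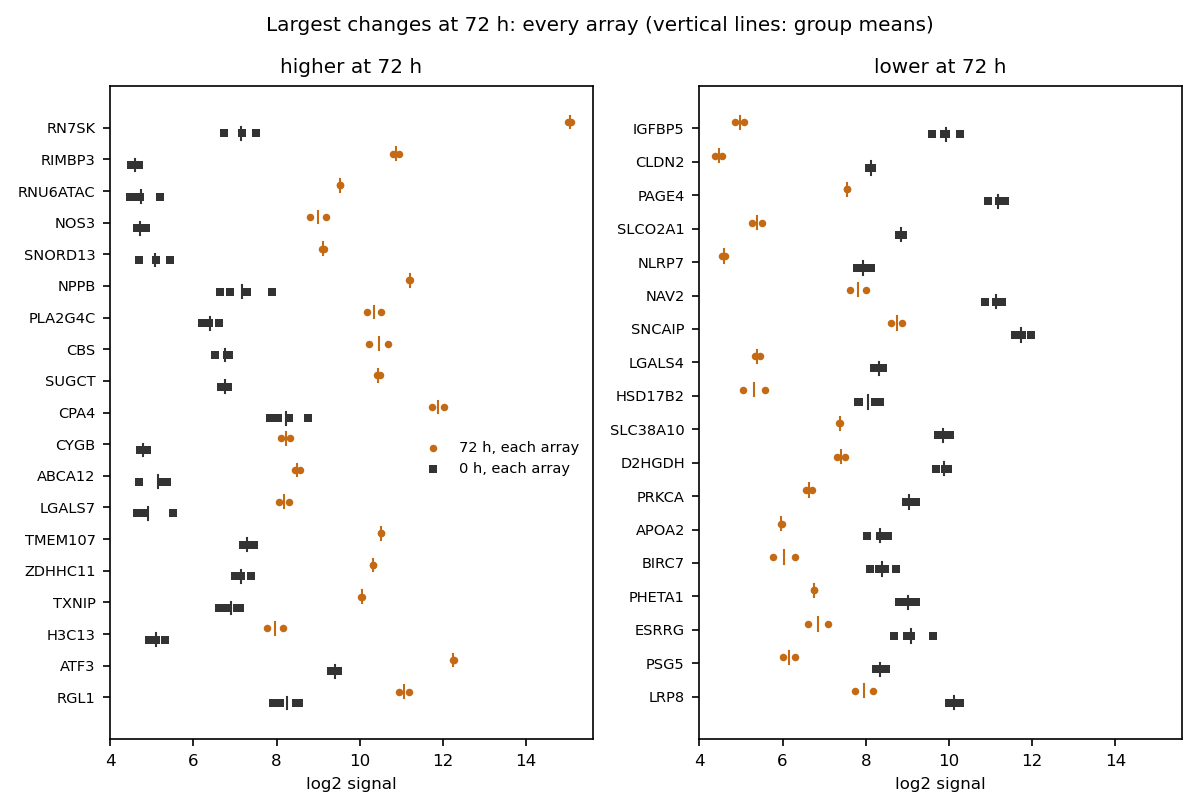
Log2 signal of every array (x axis) for the genes named by the size of their change (y axis), with 19 higher at 72 h on the left and 18 lower at 72 h on the right. Orange circles are the 2 arrays at 72 h, black squares the 4 arrays at 0 h, and vertical lines the group means. The groups overlap for none of these genes, and RN7SK stands farthest from its controls, at 15.08 and 15.01 against 6.74 to 7.50.

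The largest fall was that of IGFBP5, a secreted binding protein of insulin-like growth factors. Its log2 signal was 5.08 and 4.86 at 72 h, against 10.26, 9.89, 9.60 and 9.92 at 0 h, a fall of at least 19.5-fold to below detection (adjusted p = 1.5e-09). At 12 h it was already at 6.42 and 6.24. CLDN2, a pore-forming claudin of leaky tight junctions, was also undetected at 72 h (4.38 and 4.55), against 8.14, 8.15, 8.06 and 8.12 at 0 h, at least 5.6-fold lower (adjusted p = 5.3e-09). The same pattern, detection on all controls and on neither 72 h array, was found for 108 down-regulated genes, among them SLCO2A1, a prostaglandin transporter (at least 9.3-fold lower), LGALS4, a galectin of the gut (at least 6.42-fold), HSD17B2, which inactivates sex steroids (at least 5.33-fold), and NLRP7 (at least 4.91-fold).

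Of the genes still detected on every array, PAGE4, a cancer/testis antigen, fell most, to 7.56 and 7.55 at 72 h, against 11.34, 11.21, 11.20 and 10.94 at 0 h (log2 fold change -3.62, adjusted p = 7.3e-09). NAV2, a neuron navigator, was at 7.61 and 7.99 at 72 h and at 11.24, 11.28, 10.87 and 11.14 at 0 h (-3.33). SNCAIP, which encodes the synuclein partner synphilin-1, was at 8.88 and 8.61 at 72 h and at 11.97, 11.76, 11.61 and 11.59 at 0 h (-2.99). PRKCA, the protein kinase C alpha gene, fell by 2.42, D2HGDH, a mitochondrial dehydrogenase, fell by 2.47, APOA2, an apolipoprotein, fell by 2.37, BIRC7, an inhibitor of apoptosis, fell by 2.37, ESRRG, an orphan nuclear receptor, by 2.25, and LRP8, a receptor of reelin and apolipoprotein E, by 2.16.

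Genes of growth arrest and cell death changed in part. CDKN1A, encoding the CDK inhibitor p21, had 13.79 and 13.88 at 72 h, against 12.67, 12.76, 12.96 and 13.23 at 0 h (log2 fold change 0.93, adjusted p = 0.00045). Of 22 apoptosis regulators, 8 rose and 4 fell, against 3 and 4 with all-probe scaling. The death receptor gene FAS rose by 1.69, the BH3-only gene PMAIP1 by 1.27 and BIK, another, by 1.00, while BMF, also BH3-only, fell by 1.13. BAX, a pore-forming effector, was not called (0.14). The stress cytokine gene GDF15 rose by 1.68, the phosphatase gene PPM1D by 1.55, the ribonucleotide reductase subunit RRM2B by 1.43 and the ubiquitin ligase gene MDM2 by 1.33.

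Genes of G2 and mitosis fell together. Of 32 measured, 29 were down-regulated at 72 h on both scales, and the median was -0.88 against -0.02 over all genes. DLGAP5, a spindle assembly factor, was at 9.96 and 10.28 at 72 h, against 11.57, 11.52, 11.44 and 11.36 at 0 h (log2 fold change -1.35, SE 0.135, adjusted p = 8.9e-06). PLK1, the polo-like kinase of mitotic entry, was at 8.65 and 8.78 at 72 h, against 9.92, 10.16, 9.99 and 10.10 at 0 h (-1.32). The checkpoint kinase gene BUB1 fell by 1.30, the spindle gene TPX2 by 1.26, the cyclin gene CCNA2 by 0.94 and the kinase gene AURKA by 0.89.

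The exceptions were CDK1, the kinase partner of the mitotic cyclins, with 12.04 and 11.88 at 72 h, against 12.05, 11.79, 11.65 and 11.47 at 0 h (0.22, adjusted p = 0.25), PTTG1, which encodes securin (0.14), and ECT2 (-0.05). In all 3 genes the 72 h and 0 h arrays overlapped.

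RefSeq promoters (build GRCh38.p14), each running from 250 bases before to 50 after a gene's start, were searched for motifs. Those of this group often held a cell cycle homology region (letters TTTGAA) and a CCAAT box, both searched on either strand. Of the 27 members with a listed promoter, 18 held the first (66.7%, against 18.2% of all genes), 22 the second (81.5%, against 39.7%) and 15 both (55.6%, against 7.26%). Of the 24 called members among them, 13 held both, and CDK1 and ECT2, which did not fall, held both as well. The promoters of DLGAP5 (chr14:55191536-55191835, minus strand) and PLK1 (chr16:23678639-23678938, plus strand) are shown because these genes fell most, with every match of either motif in capitals.
DLGAP5: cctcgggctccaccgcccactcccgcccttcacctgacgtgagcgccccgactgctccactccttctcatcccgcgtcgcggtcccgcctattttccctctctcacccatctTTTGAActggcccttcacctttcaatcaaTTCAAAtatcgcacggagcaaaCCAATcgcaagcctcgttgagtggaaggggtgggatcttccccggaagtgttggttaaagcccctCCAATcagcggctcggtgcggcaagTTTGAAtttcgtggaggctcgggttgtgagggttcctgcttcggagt
PLK1: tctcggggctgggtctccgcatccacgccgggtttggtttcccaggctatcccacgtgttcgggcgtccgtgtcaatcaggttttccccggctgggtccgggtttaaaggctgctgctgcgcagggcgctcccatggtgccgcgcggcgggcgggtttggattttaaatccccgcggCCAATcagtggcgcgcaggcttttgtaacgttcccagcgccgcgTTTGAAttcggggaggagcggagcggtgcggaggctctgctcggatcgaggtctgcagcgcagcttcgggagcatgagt
The first holds 5 matches and the second 2, and a match describes the letters of this window and not a bound site.

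Of 28 measured DNA replication genes, 7 fell (25%, near the 21.4% of all genes), with a median of -0.19: MCM5 (-0.82), MCM2 (-0.67), MCM6 (-0.49), MCM7 (-0.45) and MCM4 (-0.32), all of the replicative helicase, with POLE2 (-0.45) and TYMS (-0.36). The count was 2 without 72 h replicate 1, and 17 with all-probe scaling. PCNA, the sliding clamp, was at 12.79 and 12.53 at 72 h and at 12.43, 12.51, 12.30 and 12.36 at 0 h, and did not pass (0.26, adjusted p = 0.093). Of 11 genes of G1 control (D cyclins, CDK4 and CDK6, CDK inhibitors and the RB family), 5 rose and 1, CDK4, fell (-0.38), against 4 and 2 with all-probe scaling. CCND1, encoding cyclin D1, had 15.01 and 15.10 at 72 h, against 13.91, 13.89, 14.14 and 13.78 at 0 h (1.12, adjusted p = 3.3e-05). CDKN2D, encoding an inhibitor of CDK4 and CDK6, rose by 0.89 and RB1, the retinoblastoma gene, by 0.93.

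**Figure D3:**
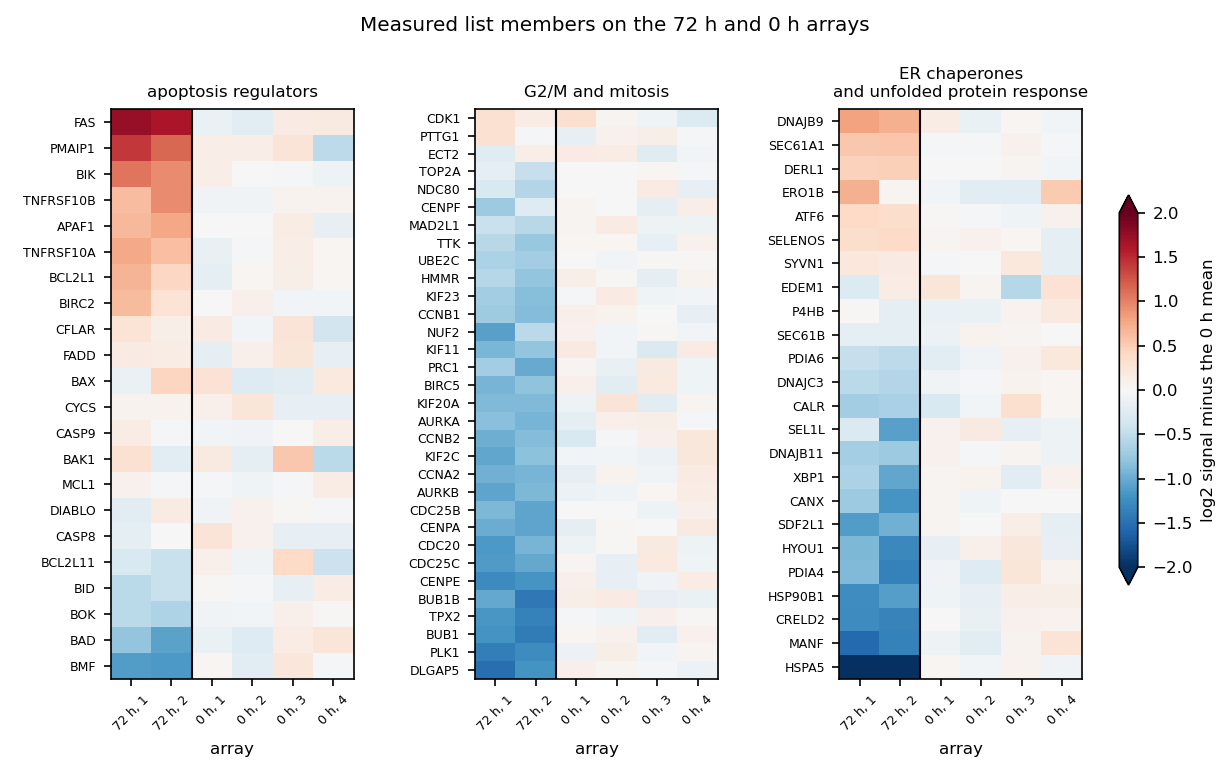
Log2 signal minus the mean of the 0 h arrays (color scale, log2 units, red higher and blue lower) for the measured members of 3 lists (rows, ordered by fold change) on the 2 arrays at 72 h and the 4 arrays at 0 h (columns, divided by a line). In the list of apoptosis regulators 8 of 22 members rose and 4 fell (3 and 4 with all-probe scaling), in the G2 and mitosis list 29 of 32 fell, and in the list of ER chaperones and the unfolded protein response 14 fell and 5 rose, those 5 losing their calls with all-probe scaling.

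Of the enzymes that make and use guanine and other purine nucleotides, 18 were measured, of which 3 rose (16.7%) and 4 fell (22.2%). These shares were near the 21.0% and 21.4% of all genes, and the median was 0.004. With all-probe scaling 8 fell, no rise was called and the median was -0.43. IMPDH2, the main IMPDH isoform of dividing cells and a target of MPA, had 13.14 and 12.99 at 72 h, against 12.19, 12.24, 12.58 and 12.27 at 0 h (log2 fold change 0.74, SE 0.125, adjusted p = 0.00048), and with all-probe scaling its difference of 0.30 was no longer called. IMPDH1, the other isoform, had 10.20 and 10.15 at 72 h and 10.08, 10.29, 10.53 and 10.43 at 0 h, with overlapping groups (-0.16, adjusted p = 0.41). The phosphoribosyl pyrophosphate synthetases PRPS2 (0.45) and PRPS1 (0.40) rose. NME2, a nucleoside diphosphate kinase whose interval overlaps the NME1-NME2 readthrough gene, fell by 0.99, GDA, the guanine deaminase, by 0.63, PFAS, of purine synthesis, by 0.52 and GUK1, the guanylate kinase, by 0.36. Without 72 h replicate 2, 1 rose and 2 fell, and GDA was among the calls lost. The salvage enzyme HPRT1 was at 11.95 and 12.11 at 72 h and at 12.08, 12.39, 11.86 and 12.14 at 0 h (-0.09).

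Nucleolar and RNA polymerase I genes fell on balance, with 12 of 27 lower, POLR1D higher (0.36) and a median of -0.37. FBL, the methyltransferase fibrillarin, was at 11.26 and 11.34 at 72 h, against 12.06, 12.04, 12.43 and 12.26 at 0 h (log2 fold change -0.90, adjusted p = 0.00014). BOP1, a factor of 60S assembly, was at 10.24 and 10.49 at 72 h, against 11.14, 11.17, 11.35 and 11.19 at 0 h (-0.85). UBTF, the polymerase I transcription factor, fell by 0.73, a call lost without 72 h replicate 1. Lower members numbered 7 without 72 h replicate 1, 6 without 72 h replicate 2 and 19 with all-probe scaling. NCL, encoding nucleolin, did not pass (-0.04), and of 27 cytosolic ribosomal protein genes 3 rose and 3 fell, against 13 lower with all-probe scaling.

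Immediate-early and MAPK feedback genes were higher at 72 h, with 14 of 26 up-regulated and a median of 0.36, but with all-probe scaling 6 were higher and 3 lower and the median was -0.01. ATF3, a stress-induced bZIP factor, had 12.24 and 12.26 at 72 h, against 9.30, 9.41, 9.47 and 9.42 at 0 h (log2 fold change 2.85, adjusted p = 2.1e-08). EGR1, a zinc finger factor, had 9.50 and 9.94 at 72 h, against 7.65, 7.82, 7.93 and 7.72 at 0 h, and FOSB rose by 1.74. The phosphatase genes of the MAP kinases split, with DUSP6 (1.68) and DUSP1 (1.28) higher and DUSP2 lower (-0.83). MYC had 12.79 and 13.08 at 72 h, against 11.72, 11.93, 11.82 and 12.12 at 0 h (1.04, adjusted p = 8e-05).

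**Figure D4:**
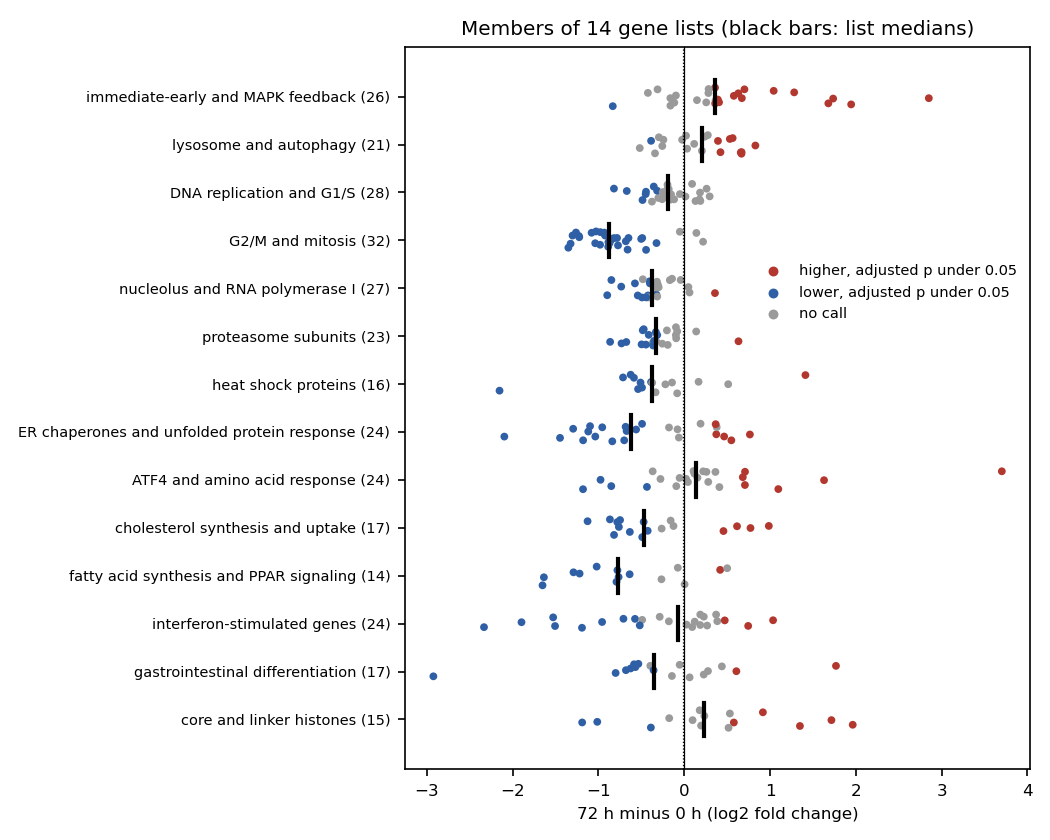
Log2 fold change of 72 h minus 0 h (x axis) for every measured member of 14 gene lists (rows, number measured in parentheses), with red for higher, blue for lower and grey for no call, black bars at list medians, a solid line at 0 and a dotted line at the median of all genes (-0.02). The immediate-early list has the highest median at 0.36 and the G2 and mitosis list the lowest at -0.88. With all-probe scaling the medians of the immediate-early (-0.01), lysosome (-0.12) and ATF4 (-0.23) lists lie below 0.

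ER chaperones were largely down-regulated, while members of the membrane machinery went both ways. Of 24 measured genes of the ER chaperones and unfolded protein response, 14 fell and 5 rose, with a median of -0.62. With all-probe scaling 16 were lower and the 5 rises lost their calls. HSPA5, encoding the chaperone BiP that also senses unfolded protein, was at 7.96 and 7.98 at 72 h, against 10.11, 10.01, 10.14 and 10.004 at 0 h (log2 fold change -2.10, SE 0.153, adjusted p = 6.7e-07), and it stood at 7.53 and 7.66 by 12 h. MANF, a secreted ER stress factor, was at 11.78 and 11.98 at 72 h, against 13.22, 13.10, 13.39 and 13.59 at 0 h (-1.45). CRELD2, another secreted ER protein, fell by 1.29 and HSP90B1, the ER paralog of HSP90, by 1.18. The membrane chaperone gene CANX fell by 0.96, the transcription factor gene XBP1 by 0.84 and SEL1L, of ER-associated degradation, by 0.68.

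Rises were seen for DNAJB9, a BiP cochaperone (0.76), SEC61A1, the translocon channel (0.55), DERL1, of ER-associated degradation (0.46), the sensor ATF6 (0.37) and SELENOS (0.37), and 3 rises passed when either 72 h array was left out.

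The ER stress element, the letters CCAAT and CCACG with 9 bases of any kind between them, on either strand, was found in 8 of the 23 members with a listed promoter (34.8%), against 25 of 27305 genes (0.0916%). It lay in 7 of the 14 members that fell. Each such match also holds a CCAAT box. The promoters of HSPA5 (chr9:125241294-125241593, minus strand) and CRELD2 (chr22:49918384-49918683, plus strand) are shown as the matched genes that fell most, with the element in capitals.
HSPA5: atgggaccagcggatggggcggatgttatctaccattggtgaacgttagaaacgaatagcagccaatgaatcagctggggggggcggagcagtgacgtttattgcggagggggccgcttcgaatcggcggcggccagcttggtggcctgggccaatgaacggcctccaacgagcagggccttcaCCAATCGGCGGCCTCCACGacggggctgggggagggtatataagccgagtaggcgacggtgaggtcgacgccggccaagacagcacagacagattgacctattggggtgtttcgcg
CRELD2: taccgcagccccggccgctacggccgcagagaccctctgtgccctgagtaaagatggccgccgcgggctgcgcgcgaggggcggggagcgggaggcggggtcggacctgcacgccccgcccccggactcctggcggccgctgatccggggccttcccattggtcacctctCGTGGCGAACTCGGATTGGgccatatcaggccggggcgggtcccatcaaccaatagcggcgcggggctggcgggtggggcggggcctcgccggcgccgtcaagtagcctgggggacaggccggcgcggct
The element of HSPA5 reads in the direction of the gene and that of CRELD2 on the opposite strand.

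Among 24 genes of the amino acid response, the factor ATF4 (0.15, no call) and its targets included, 6 rose (25%) and 4 fell (16.7%). These shares were near the 21.0% and 21.4% of all genes, and the median was 0.14. With all-probe scaling 4 rose and 5 fell. DDIT3, encoding CHOP, had 9.91 and 9.95 at 72 h, against 8.10, 8.33, 8.46 and 8.31 at 0 h (log2 fold change 1.63, adjusted p = 8e-07), in an interval that overlaps MARS1. CBS is a member too, and SLC38A2, a neutral amino acid transporter (1.10), and ASNS, the asparagine synthetase (0.71), rose. SLC7A11, the cystine transporter, SLC1A5, the glutamine transporter, and SLC7A5, the leucine transporter, fell by 1.18, 0.98 and 0.85 on the log2 scale. Folate carriers also split. SLC19A1, the reduced folate carrier, was at 5.14 and 5.63 at 72 h, against 7.64, 7.77, 8.04 and 7.78 at 0 h (-2.42, adjusted p = 3.7e-06), and SLC46A1, the proton-coupled carrier, fell by 0.88, while FOLR1, the folate receptor, rose by 1.00 and AMT, of the glycine cleavage system and overlapped by NICN1, by 1.81. Of 13 genes of folate metabolism, 5 rose (3 when either 72 h array was left out, 2 with all-probe scaling) and 6 fell.

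Lipid synthesis genes were lower on both scales. Of 14 genes of fatty acid synthesis and PPAR signaling, 9 fell and 1 rose, with a median of -0.77. SCD, the stearoyl-CoA desaturase, was at 11.80 and 11.74 at 72 h, against 13.63, 13.28, 13.29 and 13.49 at 0 h (log2 fold change -1.65, adjusted p = 5.3e-06), and PPARG, the lipid-sensing nuclear receptor, was at 8.75 and 8.95 at 72 h, against 10.65, 10.55, 10.32 and 10.43 at 0 h (-1.64). RXRA fell by 1.29 and FASN by 1.22. Of 17 cholesterol genes, 10 fell and 4 rose, with a median of -0.47: INSIG1 (-1.13), HMGCS1 (-0.87) and DHCR7 (-0.82) were lower and SC5D (0.99) higher, and with all-probe scaling 11 were lower and 1 higher. A sterol regulatory element (TCACNCCAC, either strand) lay in 1 of 16 listed promoters of these genes, that of SREBF2, which did not pass the test (-0.13, adjusted p = 0.75), a share of 6.25% against 1.39% of all genes.

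Protein quality control outside the ER moved down as well. Of 23 proteasome subunits, 12 fell and PSMA2 rose (0.63), with a median of -0.33. PSMD11 fell by 0.86, PSMB4 by 0.73 and PSMD2 by 0.68. Lower subunits numbered 7 without 72 h replicate 1, 6 without 72 h replicate 2 and 21 with all-probe scaling. Of 16 heat shock genes, 8 fell and 1 rose (12 and 1 with all-probe scaling). HSPA1A, the inducible HSP70, was at 5.69 and 5.10 at 72 h, against 7.74, 7.65, 7.63 and 7.19 at 0 h, at least 3.78-fold lower (adjusted p = 4.2e-06), and the cochaperone gene DNAJA1 fell by 0.71. CRYAB, a small heat shock protein in an interval shared with HSPB2, rose by 1.41 and was detected on no control array. Lysosome and autophagy genes had 8 of 21 higher, led by the autophagy kinase ULK1 (0.83), with SQSTM1 (0.67) and MAP1LC3B (0.67), but none of these rises was called with all-probe scaling, where 6 members were lower.

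HMOX1, the heme oxygenase, had 6.78 and 7.89 at 72 h, against 9.50, 8.96, 9.08 and 8.98 at 0 h (log2 fold change -1.80, SE 0.249, adjusted p = 0.00013), and the 72 h arrays lay farther apart than the controls did. Of 17 NRF2 antioxidant genes, 8 fell and 3 rose (10 and 1 with all-probe scaling). Among them AKR1B10, an aldo-keto reductase, rose by 2.44, and 1 rise was left without 72 h replicate 1. Among 23 genes of glycolysis and hypoxia, 10 fell and 6 rose (12 and 3 with all-probe scaling). The glycolytic genes GPI (-1.11) and PKM (-1.01) fell. Members known as hypoxia-induced went both ways. P4HA1, a collagen prolyl hydroxylase (0.99), NDRG1 (0.94) and ANKRD37 (0.82) rose, ADM fell (-0.94), and VEGFA (0.02) and EGLN3 (-0.07) were not called. Of 23 respiratory chain genes, 6 fell (26.1%, near the 21.4% of all genes) and 2 rose, while with all-probe scaling 15 fell, no rise was called and the median was -0.56. UQCRC2 of complex III fell by 1.02.

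Interferon-stimulated genes did not move as a block, with 9 of 24 lower, 3 higher and a median of -0.08 (12 lower, 1 higher and -0.50 with all-probe scaling). OAS2, an antiviral oligoadenylate synthetase, was at 5.26 and 5.84 at 72 h, against 7.88, 7.82, 7.84 and 7.97 at 0 h (log2 fold change -2.33, adjusted p = 2.7e-07), and IFI44L, IFI44 and BST2 fell by 1.90, 1.53 and 1.51 on the log2 scale. TAP1, a peptide transporter of antigen presentation, rose by 1.03, and ISG15 was not called (0.03). Of 13 NF-kappaB and chemokine genes, 3 rose (23.1%) and 2 fell (15.4%), near the 21.0% and 21.4% of all genes. CXCL8, encoding interleukin-8 (1.45), and TNFAIP3, a feedback inhibitor of NF-kappaB (1.40), were highest.

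Genes of adhesion, movement and growth factor signaling went both ways. The study's text names 15 genes tied to migration, which it chose on these samples, so their count is no independent evidence of direction: at 72 h 7 rose, NOS3 and CDH10 among them, 7 fell, IGFBP5 among them, and INF2 was not called. PDGFRA, a platelet-derived growth factor receptor, was at 8.41 and 8.60 at 72 h, against 10.88, 10.64, 10.58 and 10.35 at 0 h (log2 fold change -2.11, adjusted p = 1.8e-06). DOCK1, a Rac activator, fell by 1.14. ARRB1, encoding beta-arrestin-1, fell by 0.53 on its brightest probe, a call lost without 72 h replicate 1. In a fit over probes, another ARRB1 probe fell by 2.96 (adjusted p = 6.1e-09, limma), and a further one was not called (-0.37). SRC, the tyrosine kinase, was at 8.36 and 8.50 at 72 h, against 9.38, 9.57, 9.11 and 9.47 at 0 h (-0.95, adjusted p = 0.00043). For INF2, a formin, the brightest probe gave 12.69 and 12.93 at 72 h, against 12.40, 12.51, 12.46 and 12.67 at 0 h (0.30, adjusted p = 0.077), whereas in a fit over probes another one fell by 2.63 (adjusted p = 1.2e-06) and the third was not called.

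In TGF-beta and BMP signaling, 7 of 20 genes rose and 9 fell (4 and 10 with all-probe scaling). CITED2, a transcriptional coregulator, had 10.48 and 10.27 at 72 h, against 8.51, 8.42, 8.70 and 8.05 at 0 h (log2 fold change 1.95), and CCN1, a matrix protein, rose by 1.91 and SMAD3, the receptor-activated SMAD of TGF-beta, by 1.50. The inhibitory SMAD6 was at 6.59 and 6.56 at 72 h, against 8.72, 8.75, 8.52 and 8.54 at 0 h (-2.06, adjusted p = 7.6e-08), and the BMP target ID3 was at 9.60 and 9.74 at 72 h, against 11.54, 11.50, 11.54 and 11.31 at 0 h (-1.80). ID1 fell by 1.31.

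Of 23 receptor kinases, their ligands and binding proteins of insulin-like growth factors, 7 rose and 10 fell (5 and 11 with all-probe scaling), and IGFBP5, IGFBP4 (-1.30) and IGFBP2 (-0.87) were 3 of the falls. The EGF receptor ligand TGFA rose by 1.70, NRG1 by 1.64 and EGFR by 1.00, while ERBB3 fell by 1.24 and FGFR4 by 1.69. Of 29 actin cytoskeleton genes, 9 fell and 3 rose (14 and 2 with all-probe scaling). The actin bundling gene FSCN1 was at 6.55 and 6.87 at 72 h, against 8.53, 8.53, 8.62 and 8.80 at 0 h (log2 fold change -1.91), MSN, encoding moesin, fell by 1.15, and LIMA1, which crosslinks actin, rose by 1.09. The falls in this list numbered 4 without 72 h replicate 1 and 5 without 72 h replicate 2. In axon guidance, PLXNA2, a semaphorin coreceptor, was at least 2.62-fold lower and DPYSL3 fell by 1.65, while NTN4, a netrin, rose by 1.38.

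Epithelial identity genes changed in part. CDH1, encoding E-cadherin, had 9.53 and 9.56 at 72 h and 9.53, 9.20, 9.48 and 9.44 at 0 h (0.13, adjusted p = 0.44). CLDN1 rose by 1.05 and the desmosomal gene DSC2 fell by 0.93. Among keratins, KRT15 had 8.30 and 8.27 at 72 h, against 6.54, 6.73, 6.67 and 6.41 at 0 h (log2 fold change 1.70), and KRT13 fell by 1.58. Of 17 genes of gastrointestinal differentiation, 8 fell and 2 rose (8 and 1 with all-probe scaling). Beside LGALS4, the intestinal cadherin CDH17 fell by 0.80, REG4, a lectin of the gut, by 0.68 and GATA4 by 0.63, while CEACAM1, an adhesion molecule, had 11.53 and 11.72 at 72 h, against 9.95, 9.86, 9.98 and 9.63 at 0 h (1.77, adjusted p = 1.7e-06).

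Histone genes were split as well. Of 15 measured core, linker and variant histones, 5 rose and 3 fell (4 and 3 with all-probe scaling), beside 21.0% and 21.4% of all genes. H4C8 had 7.56 and 7.63 at 72 h, against 5.64, 6.25, 5.83 and 4.81 at 0 h (log2 fold change 1.96, adjusted p = 0.00016), and H4C14 rose by 1.72 and H3C10 by 1.35. H4C3 fell by 1.19, the variant gene H2AX by 1.01 and the variant gene H2AZ1, whose transcript is polyadenylated, by 0.39. H3C13, named by the size of its change, rose at least 4.84-fold on its brightest probe, while another probe of the gene fell by 0.73. Copies of histone genes are near identical, so signals may be shared between them, and these assignments are uncertain.

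Far fewer genes were called between 72 and 48 h. At an adjusted p under 0.05, 212 genes differed (2.03%), with 84 higher and 128 lower at 72 h, and the SD of the log2 difference between a 72 h and a 48 h array was 0.35 to 0.382 over 4 pairs. Of the 494 genes raised at least 2-fold over 0 h, 32 exceeded their 48 h level at 72 h, 34 lay below it and 428 had no call. Of the 372 genes lowered at least 2-fold, 3 were higher, 14 lower and 355 had no call. Both sets were picked on the 72 h arrays that also enter the test against 48 h, so the splits are no independent evidence of direction. This comparison rests on 2 arrays against 2, and counts fell to 18 to 45 higher and 42 to 66 lower when any of the 4 arrays was left out.

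Among the genes higher at 72 h than at 48 h, RIMBP3 had 10.79 and 10.93 at 72 h, against 9.30 and 9.42 at 48 h (log2 difference 1.50, adjusted p = 0.0023), RNU6ATAC rose by 1.39, RNU11 by 1.16, TMEM107 by 1.08 and SNORD13 by 1.03. H3C13 rose by 1.30 and H3C10 by 0.90. Higher at 72 h than at 48 h were 3 of the 15 measured histones, beside 84 of all 10469 genes. PRKCH, the protein kinase C eta gene, had 7.04 and 7.20 at 72 h, against 5.97 and 5.73 at 48 h (1.27, adjusted p = 0.0032). NFIB, a nuclear factor I gene, had 9.09 and 8.97 at 72 h, against 7.80 and 7.89 at 48 h (1.19, adjusted p = 0.00093), and its 72 h arrays lay just above the controls at 8.91, 8.83, 8.90 and 8.94 (0.13, adjusted p = 0.4).

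Other genes were lower at 72 h than at 48 h. MYLK, the myosin light chain kinase, had 5.82 and 5.98 at 72 h, against 7.87 and 7.79 at 48 h (-1.93, adjusted p = 2.1e-05), though it stayed above the 0 h arrays at 4.77, 4.43, 4.56 and 4.64. LCE1B, a protein of the cornified envelope, was at 7.84 and 7.60 at 72 h and at 9.66 and 9.50 at 48 h (-1.86, adjusted p = 0.00062). AXL, a TAM receptor kinase, had 8.28 and 8.30 at 72 h, against 9.87 and 9.82 at 48 h (-1.55, adjusted p = 0.014), and still lay above 5.54, 5.97, 5.86 and 4.80 at 0 h. AKR1B10, LGALS7 and SUGCT, all higher than at 0 h, were also lower at 72 h than at 48 h, with differences of -1.44, -1.44 and -1.04 on the log2 scale.

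**Figure D5:**
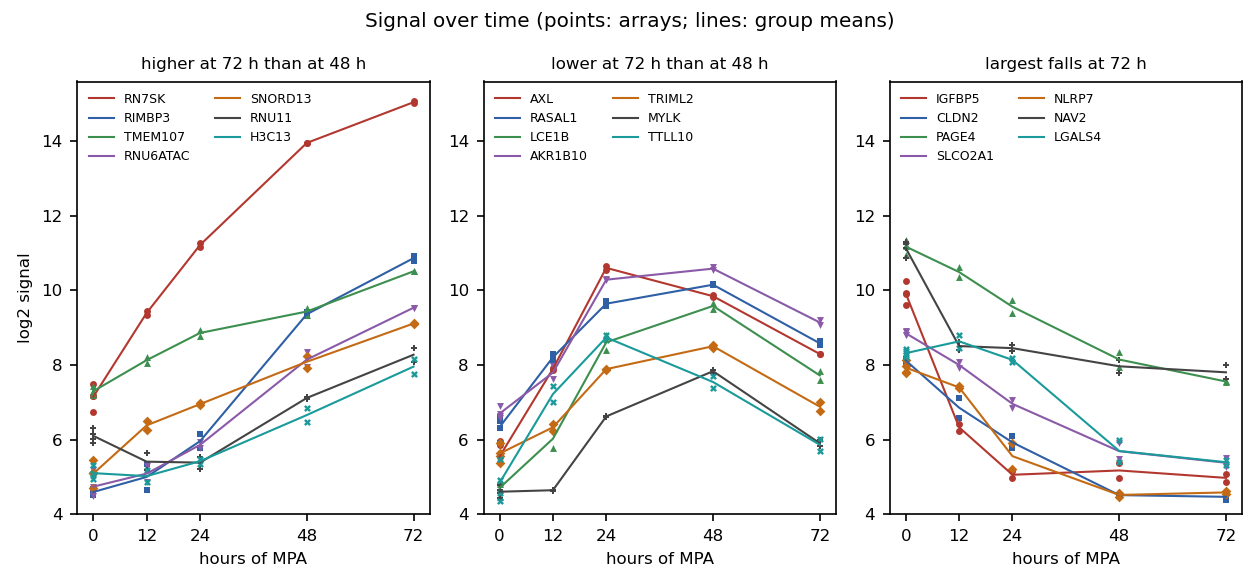
Log2 signal (y axis) over hours of MPA (x axis, 0 to 72) for genes higher at 72 h than at 48 h (left), genes lower at 72 h than at 48 h (middle) and genes with the largest falls at 72 h (right), with points for single arrays and lines through group means. RN7SK stands at 15.08 and 15.01 at 72 h and at 13.95 and 13.96 at 48 h, AXL is highest at 24 h, and IGFBP5 is near 5 from 24 h on.

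Set against 12 h of MPA, 72 h differed in 3465 genes (33.1%), with 1798 higher and 1667 lower. Of the 494 genes raised at least 2-fold against 0 h, 325 were also above 12 h and 16 below it. Of the 372 lowered genes, 234 were below 12 h and 14 above. Both sets were picked on the 72 h arrays that also enter this test, so these splits are no independent evidence of direction. CDKN1A was not called between 72 and 12 h (-0.04, adjusted p = 0.9). Later falls included LGALS4, at 5.45 and 5.33 at 72 h and at 8.46 and 8.80 at 12 h (-3.24, adjusted p = 5e-07), and SMIM24, a small membrane protein, at 9.08 and 9.26 at 72 h and at 11.30 and 11.77 at 12 h (-2.36, adjusted p = 2.5e-06). HSPA5, PRKCA and SLC19A1 were not called between these times (0.38, -0.22 and -0.28). DOCK1 was at 8.87 and 8.51 at 72 h, against 7.66 and 7.86 at 12 h, a difference of 0.93 (adjusted p = 0.0015), and stayed below 0 h.

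C2orf48 was near its 0 h level at 72 h (6.17 and 5.79, against 5.99, 6.18, 6.08 and 6.26 at 0 h) after readings of 8.13 and 8.11 at 12 h (72 h minus 12 h -2.14, adjusted p = 1.8e-06). MT2A, a metallothionein, was above 0 h by 1.02 and below 12 h (-0.60, adjusted p = 0.032), while MT1X and MT1F were below both. Of the 15 measured histones, 9 were higher at 72 h than at 12 h, beside 1798 of all 10469 genes. Of the 5 reference genes that the study used for RT-PCR, GUSB rose by 0.40 and MRPL19 fell by 0.37, with a median of -0.16. Neither was called with scaling to the median of the kept probes. With all-probe scaling 3 of the 5 were lower, none was higher and the median was -0.58, against -0.32 over all genes.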

How the data were processed

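RNA of AGS cells was measured on Illumina HumanHT-12 bead arrays (4 at 0 h and 2 each at 12, 24, 48 and 72 h of MPA), labelled from an oligo-dT primer. The deposited intensity of each probe was not normalized, and a deposited detection score of each probe, a fraction between 0 and 1, stood beside it. The detection p-value was taken as 1 minus this score. The authors' own normalized values, deposited on a log2 scale, were made with lumi, with settings not given in the sources used here, and served as an alternative only. Of 48803 probes, 28098 were paired with 1 gene, 13 with several and 20692 with none in the platform annotation, an earlier version of the array than the study names, and 28059 were given their current symbol through Entrez gene IDs in RefSeq's gene table.

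Intensities were corrected by normexp, with negative controls inferred from the detection p-values and an offset of 16, quantile normalized and taken to log2 (R 4.3.3, limma 3.58.1, statmod 1.5.0). A probe was kept where 2 or more arrays detected it (p under 0.01), and a gene was represented by its brightest kept probe. A linear model of 5 groups was fitted to all 12 arrays with lmFit and eBayes, and p-values were adjusted over 10469 genes (Benjamini-Hochberg, threshold 0.05). Standard errors are those of the fit, and the number of arrays limits the precision. On simulated data, 13424 genes were tested for 72 h against 0 h, of which 13225 were left unchanged. The calls included 47 of 50 genes raised 4-fold and 34 of 49 raised 2-fold. They also included 41 of 50 lowered 4-fold, 31 of 50 lowered 2-fold and 14 of the 13225 unchanged genes. A share of changed genes near the 42.3% called between the 72 h and 0 h arrays was not tested in this way.

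Genes were named if they were among the 12 highest or 12 lowest called fold changes detected on all 6 arrays and outside the range of the controls, among the 8 (higher) or 6 (lower) largest bounds where one group was undetected, among the 4 most changed called members of a list, named in the study's text as measured on the arrays, or among the 6 highest or 6 lowest called differences from 48 h or 12 h. Further members of the lists were named as a contrast or to describe a list, in part after their values were seen. The members and lists were chosen with earlier results of these data known. As alternatives, the authors' values were used, the background correction was left out, and median scaling over kept or over all probes was tried, as were another offset, other detection filters, the mean of a gene's probes, the arrays of 2 groups only, array weights, a variance trend, a replicate block, a stricter threshold and leaving out each array. Promoters were RefSeq sequences of build GRCh38.p14. The results of 1 gene list and its motif search are not reported here.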

Additional observations from a re-analysis of the deposited data

Results flagged for a closer look

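Of 190 named genes, 9 had a 0 h array far from the other 3, with a gap to the nearest of the others, divided by the range of the 4 arrays, above Dixon's 95% critical value, and chance gives about 1 in 20 such groups. The ratios were 0.974 for COL1A1, 0.917 for DSC2, 0.905 for CYC1, 0.902 for MCM7, 0.89 for H4C14, 0.879 for COL5A1, 0.857 for FOLR1, 0.853 for CBS and 0.85 for PLXNA2.

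Among the genes named for their change against 0 h or as list members, 15 also differed between 72 and 48 h of MPA by the limma test of that difference. On the log2 scale, 72 h exceeded 48 h for RIMBP3 by 1.5, RNU6ATAC by 1.39, H3C13 by 1.3, RN7SK by 1.09, TMEM107 by 1.08, SNORD13 by 1.03 and H3C10 by 0.896. The difference of 72 h minus 48 h was -1.55 for AXL, -1.44 for AKR1B10, -1.44 for LGALS7, -1.41 for BIRC7, -1.15 for CRYAB, -1.04 for SUGCT, -0.855 for BMF and -0.727 for DPYSL3.

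Probes without a gene name were not part of the comparisons. Of 2697 such probes kept, 514 rose and 418 fell at 72 h against 0 h, and 39 of those raised at least 2-fold were detected on both 72 h arrays and on no 0 h array.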

How the results depend on the processing

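Of 187 named genes called at 72 h against 0 h, 156 kept their direction and call under the alternatives run. Of 3378 gene values under alternatives, 92 changed their call and 1 its sign: with the mean of its probes, INF2 was at -0.82 (adjusted p = 0.00038, limma). Counts of 2-fold changes were 259 higher and 183 lower with the authors' values, 251 and 175 without background correction and 327 and 231 with an offset of 50, and 326 were higher with detection on all 12 arrays. Scaling to the median over all probes, added after the data were seen, gave 843 higher and 3545 lower, 302 and 882 at 2-fold, 17 and 54 against 48 h, and 460 and 2713 against 12 h. Against 48 h, median scaling over kept probes gave 44 higher and 81 lower, the arrays of the 2 groups alone 14 and 28, and detection on all 12 arrays 74 lower. At an adjusted p under 0.01, 1453 genes were lower against 0 h, 23 higher and 44 lower against 48 h, and 1026 higher and 894 lower against 12 h. The cause of these shifts was not tested.

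Leaving out 1 array at a time, where a lone array was assumed to vary like the other groups, gave 1589 to 2086 genes higher and 1520 to 2190 lower against 0 h, 491 to 527 and 369 to 446 at 2-fold, 18 to 45 and 42 to 66 against 48 h, and 1108 to 1455 and 948 to 1372 against 12 h. Same-numbered arrays correlated at -0.19 to 0.266 in their deviations over 20 pairs, with 3 over 0.1. The deviations of the 2 arrays of a treated group mirror each other, so these values cannot decide whether the numbers pair the arrays. With a replicate block, 1803 genes were higher and 1730 lower against 0 h, 497 and 370 at 2-fold, 59 and 107 against 48 h, and 1770 and 1636 against 12 h. For genes near background, signal over background limits the fold: 112 of 494 genes raised 2-fold were detected on no 0 h array and 78 of 372 lowered 2-fold on no 72 h array.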
